A study of Arabidopsis thaliana with 12 samples.

Results

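Leaf RNA of an autophagy mutant, atg5, was compared with that of wild-type Arabidopsis thaliana (col) after 48 h under water. The comparison set the 3 arrays of submerged atg5 plants against the 3 arrays of submerged col plants, which are 6 of the 12 arrays of the study, and took in every gene that a probe set measured alone. Of 22810 probe sets, 13513 were assigned to 1 gene, and with the brightest probe set kept for each gene they gave 13356 genes. The plants were 28 days old, grown with 12 h of light a day, and submerged whole beneath 10 cm of water with the light cycle kept. The other 6 arrays, 3 of each genotype, came from control plants of the same age, and they gave the difference between the genotypes without submergence. Here 0 h and 48 h stand for time under water, and the controls are written as 0 h. The labels name the mutant only as atg5, without its allele, and name the samples of a group biological replicates without saying how many plants each pooled. The p-values therefore measure the spread between these samples, pooled for each gene over the 4 groups. The level of a gene is the deposited log2 value, on which a difference of 1 is a 2-fold change.

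Autophagy is the route by which cells enclose their own proteins and organelles in membranes and carry them to the vacuole for breakdown. ATG5 is part of the enzyme complex that couples ATG8, the small ubiquitin-like protein of the growing membrane, to a lipid, and plants without it form few or no autophagic bodies and have leaves that age early. Under water a leaf is short of oxygen and of light-driven sugar supply, and autophagy is one of the ways in which it recycles its contents.

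At 48 h, 457 of the 13356 genes passed the test, which was limma's moderated test over all 12 arrays with Benjamini-Hochberg adjustment and a threshold of 0.05. They made up 3.42% of the genes. In atg5 246 genes were higher, 1.84% of all, and 211 were lower, 1.58% of all. The median difference was 0.81 among the higher genes and -0.76 among the lower ones, while the median over all genes was 0.00. Of the higher genes 85 differed by 2-fold or more and 57 by under 1.5-fold, and of the lower genes 47 and 64. In every 1 of the 457 the 3 atg5 arrays lay all above or all below the 3 col arrays, a separation that 2168 genes showed, 16.2% of all. Among the 1336 brightest genes 72 were higher and 71 lower, or 10.7%. At an unadjusted p under 0.05 in limma's test, 1029 of all genes were higher and 1029 lower, and 244 and 248 of the brightest. The size of the list depended on the arrays in the fit. With the 6 submerged arrays alone 13 genes passed, 8 of them among the 457, and the count was 270 without col replicate 1 at 48 h, 751 without col replicate 3 at 48 h, 190 without atg5 replicate 1 at 48 h, 179 without atg5 replicate 3 at 48 h and 279 without atg5 control replicate 3.

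**Figure D1:**
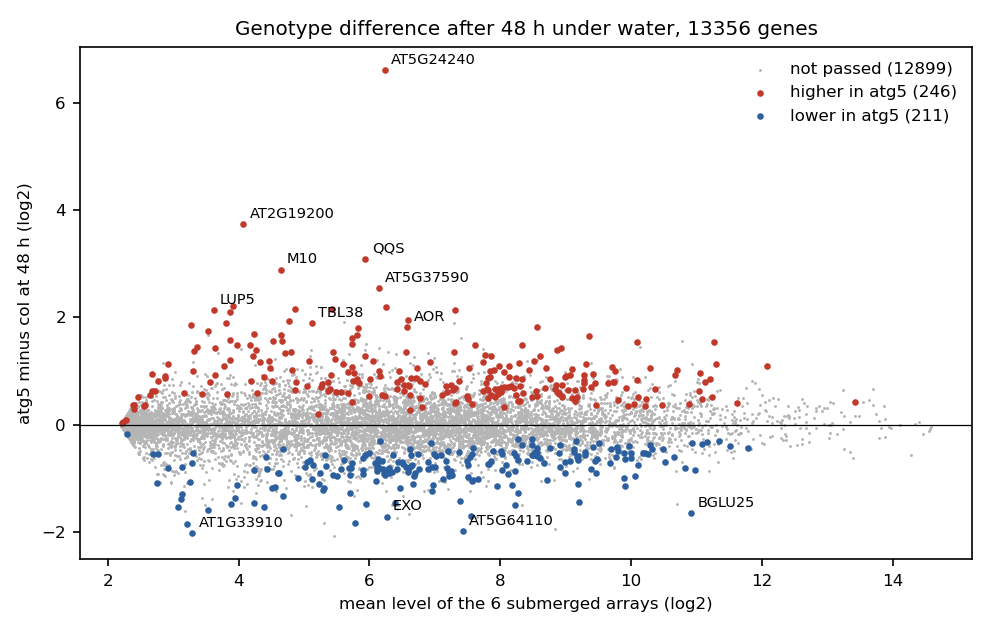
Difference between atg5 and col after 48 h under water (y axis, log2) against the mean level over the 6 submerged arrays (x axis, log2), 1 point for each of 13356 genes. The 246 higher genes are red and the 211 lower genes blue. AT5G24240, at 6.61, stands above all other genes, and the most negative difference that passed is -2.02 (AT1G33910).

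The arrays of the 2 genotypes had alike summary values. The array median of all genes ran from 3.36 to 3.49 over the 6 submerged arrays, and between 35.4% and 37.5% of genes lay at the lowest value of the table, 2.204, here called the floor. The spiked bacterial RNAs differed by -0.15, the hybridization spikes by 0.08 and the 25S ribosomal RNA probe set by -0.30, with exact two-sided permutation p of 0.5, 0.7 and 0.3, where 0.1 is the smallest that 3 arrays against 3 allow. The ratio of 3 prime to 5 prime signal differed by 0.16 for actin (exact permutation p = 0.2). The spread was not alike: limma's array weights were 0.903, 0.486 and 0.597 for the submerged col arrays and 1.5, 0.963 and 1.51 for the submerged atg5 arrays, so that col replicate 2 stood farthest from its group. Leaf identity was checked on markers. The photosynthesis list had array medians between 13.59 and 13.80 in the 0 h arrays, and the root gene PYK10 was at the floor in both submerged groups.

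AT5G24240 showed the widest gap between the genotypes. Its level was 2.94, 2.98 and 2.86 in submerged col and 9.46, 9.50 and 9.66 in submerged atg5. The col arrays sat within 1 log2 unit of the floor and the atg5 arrays far above them, with no overlap. The difference was 6.61 ± 0.15 (SE, n = 3 and 3), a 97.6-fold change, with an adjusted p of 4.29e-07. The gene already differed without submergence, by 4.46 (2.61 in col and 7.07 in atg5), and the difference at 48 h was larger by 2.15 ± 0.22 (interaction, adjusted p = 0.00608). With submergence its level moved by 0.32 in col and by 2.47 in atg5.

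AT2G19200 was at the floor in all 6 arrays at 0 h and in the 3 submerged col arrays, and at 5.27, 6.19 and 6.37 in submerged atg5. It was thus seen above the floor in 1 of the 4 groups. The difference was at least 3.74 (adjusted p = 0.000332). The spread behind this p-value was pooled over all groups. The SD was 0.59 in submerged atg5, 0.005 in submerged col and 0.0 in both genotypes at 0 h. M10, a late embryogenesis abundant protein gene, a class that seeds store as they dry, had levels of 3.35, 3.30 and 2.94 in submerged col and 6.54, 5.74 and 5.99 in submerged atg5. The groups did not overlap, and the difference was 2.89 ± 0.20 (adjusted p = 0.000409). At 0 h M10 was near the floor in both genotypes, at 2.33 and 2.37, and the 48 h difference exceeded that at 0 h by 2.86 ± 0.28 (adjusted p = 0.00608).

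QQS, an orphan gene known to lower leaf starch, differed at both times. Its level was 5.18, 3.34 and 4.66 in submerged col and 7.50, 7.61 and 7.34 in submerged atg5. The atg5 arrays lay close together and above all col arrays, of which replicate 2 was the lowest. The difference of 3.09 ± 0.54 (adjusted p = 0.0225) stood beside one of 2.88 ± 0.54 at 0 h (adjusted p = 0.0352), and the interaction did not pass (0.21 ± 0.76, adjusted p = 1). Submergence moved QQS by -2.70 in col and by -2.49 in atg5. QQS passed under 19 of 23 other settings.

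LUP5, a lupeol synthase-type gene of triterpene formation, had levels of 2.40, 2.33 and 2.92 in submerged col and 4.35, 5.01 and 4.71 in submerged atg5. These 3 col arrays were close to the floor, as were all arrays at 0 h, where the means were 2.26 and 2.27. Its difference was 2.14 ± 0.18 (adjusted p = 0.00129). TBL38, of the trichome birefringence-like family of wall polysaccharide acetylation, was at 3.93, 4.80 and 3.78 in col and 5.89, 5.95 and 6.36 in atg5, a difference of 1.90 ± 0.28 (adjusted p = 0.0128).

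The other genes among the 15 with the largest positive differences carry only a locus name. AT5G37590 was at 4.72, 4.54 and 5.35 in submerged col and 7.12, 7.87 and 7.27 in submerged atg5, a difference of 2.55 ± 0.33 (adjusted p = 0.00867). It moved in opposite directions with submergence, by -1.29 in col and by 1.93 in atg5. AT3G01060 was at 6.29, 6.58 and 5.85 in submerged col and at 8.34, 8.29 and 8.50 in submerged atg5. Its atg5 level was near that of both genotypes at 0 h, 8.22 and 8.20, and the col level was lower than all of these. The difference was 2.14 ± 0.17 (adjusted p = 0.00077). AT2G36145 was high in both genotypes at 0 h, at 9.79 and 9.82, and low after 48 h, at 4.21, 2.71 and 4.48 in col and 5.46, 5.83 and 5.93 in atg5. Its difference of 1.94 ± 0.39 (adjusted p = 0.0378) passed under 11 of 23 other settings. The remaining 6, AT1G01390, AT3G56290, AT3G46370, AT4G27290, AT1G09500 and AT4G16000, differed by 1.96 to 2.21.

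The largest negative differences were smaller than the positive ones and ran from -2.02 to -1.46 over 15 genes. EXO, a gene of brassinosteroid-promoted leaf growth, was at 7.60, 6.67 and 7.10 in submerged col and 5.63, 5.49 and 5.11 in submerged atg5. Every atg5 array was below every col array. The difference was -1.71 ± 0.23 (adjusted p = 0.00902), beside -0.50 at 0 h (adjusted p = 0.373), and the level moved by 2.88 with submergence in col and by 1.68 in atg5. BGLU25, a beta-glucosidase, was at 11.30, 12.45 and 11.46 in col and 10.38, 9.89 and 9.99 in atg5. The groups did not overlap, and col replicate 2 was the highest array. Its difference was -1.65 ± 0.29 (adjusted p = 0.0225). RALFL22, a peptide of the RALF family that signals through wall-sensing receptor kinases, was at 6.33, 6.39 and 6.21 in col and 4.11, 5.29 and 4.91 in atg5. The difference was -1.54 ± 0.30 (adjusted p = 0.0323), and the atg5 arrays were the more scattered. CSLA03, a cellulose synthase-like enzyme of the mannan-making class, was at 4.56, 4.38 and 4.91 in col and 3.38, 3.18 and 2.88 in atg5, a difference of -1.47 ± 0.25 (adjusted p = 0.0211).

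In 3 loci submerged col was above the floor and submerged atg5 close to it. AT1G33910 was at 3.79, 3.92 and 5.22 in submerged col and 2.22, 2.41 and 2.21 in submerged atg5, and at the floor at 0 h in both genotypes. The difference was -2.02 ± 0.32 (adjusted p = 0.0161). AT5G06330 was at 4.01, 4.87 and 3.55 against 2.27, 2.33 and 2.27, a difference of -1.86 ± 0.27 (adjusted p = 0.0126). AT1G49210 was at 3.73, 3.45 and 4.36 against 2.32, 2.31 and 2.31, a difference of -1.54 ± 0.19 (adjusted p = 0.00607). In all 3 loci the submerged col arrays lay above every other array of the study. Because the atg5 values lie at or just above the floor (2 of 3 arrays of AT1G33910 are at it), the size of these 3 differences is limited by the floor. Their SE is also narrowed, because the spread was pooled with 0 h arrays at or near the floor. For AT1G33910 the SD was 0.79 in submerged col and 0.11 in submerged atg5, against 0.0077 and 9.4e-05 at 0 h. AT5G64110 was also at the floor at 0 h and was high in both submerged groups, at 8.20, 9.14 and 7.91 in col and 6.30, 6.19 and 6.81 in atg5, a difference of -1.99 ± 0.29 (adjusted p = 0.0126).

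AT5G47050, AT1G66180 and AT2G27080 were above their 0 h levels in both submerged genotypes, with differences of -1.46, -1.50 and -1.84 between the genotypes at 48 h. AT3G18280, AT2G47440 and AT3G08670 were below their 0 h levels in both, with differences of -1.70, -1.48 and -1.53. AT4G39190 was at 4.33 in submerged col and 2.74 in submerged atg5, against 4.43 and 4.69 at 0 h. AT1G66180 and AT2G27080 passed under 10 and 11 of 23 other settings.

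**Figure D2:**
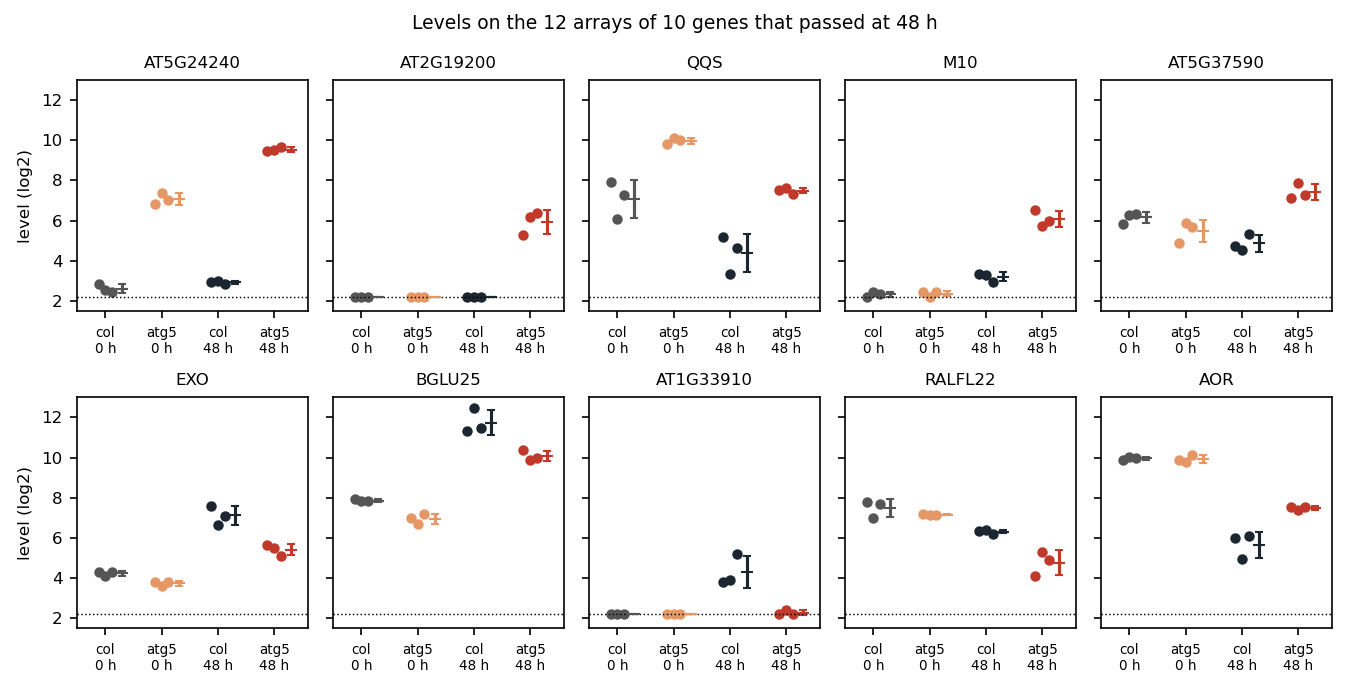
Level (y axis, log2) of 10 genes that passed at 48 h on each of the 12 arrays, by genotype and time (x axis). Points are arrays, the bars beside them the group mean and SD (n = 3), and the dotted line the floor at 2.204. AT5G24240 and QQS differed between the genotypes at 0 h as well, AT2G19200 was above the floor in submerged atg5 alone, and the groups of each gene do not overlap at 48 h.

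Without submergence 313 genes passed, 2.34% of all, with 183 higher and 130 lower in atg5. The arrays at 0 h are not those at 48 h, but both lists come from 1 fit with 1 residual variance per gene, so they are not independent, and the share of genes in common is a description. They shared 43 genes, which are 9.41% of the 48 h list and 13.7% of the 0 h list. The 0 h count was 124 and 157 without atg5 control replicates 1 and 3 and 181 and 203 without atg5 replicates 1 and 3 at 48 h. Of the 43, 25 were higher and 17 lower at both times, and 1 had opposite signs. That gene was PYE, a transcription factor of the iron deficiency response, with 0.68 at 0 h and -0.72 at 48 h (interaction, adjusted p = 0.0184). Among the 246 genes higher at 48 h the median difference at 0 h was 0.18, and 186 were also positive there. Among the 211 lower genes the median at 0 h was -0.09, and 140 were also negative. AT4G16000 was among the genes that passed at both times, with 1.96 at 48 h and 1.46 at 0 h.

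The test of the difference between both times, the interaction, was passed by 80 genes, 0.599% of all. Of these, 41 had also passed at 48 h, 24 of them higher and 17 lower in atg5, and 39 had not. AT4G27290 was at 3.55, 3.81 and 4.00 in submerged col and 6.24, 5.67 and 5.90 in submerged atg5, and at or near the floor at 0 h, so that its difference grew by 2.11 ± 0.21 (adjusted p = 0.00608). BGLU16, another beta-glucosidase, was at 9.06, 9.25 and 9.36 in submerged col and 8.34, 8.09 and 8.16 in submerged atg5, against 8.56 and 8.55 at 0 h, and its difference grew by -1.01 ± 0.14 (adjusted p = 0.0248). The number of genes passing the interaction was 51 without atg5 replicate 1 at 48 h, 186 without col replicate 3 at 48 h, and 126 and 137 without col control replicates 2 and 3.

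The next 4 genes passed the interaction and the test at 0 h but not at 48 h. AT4G29020 was at 7.16, 6.48 and 7.34 in col at 0 h and 4.14, 4.40 and 3.80 in atg5. After 48 h the means were 3.29 and 3.06. AT1G64360 was at 4.81, 4.04 and 4.14 in col and 6.53, 6.90 and 6.04 in atg5 at 0 h, and at 9.05 and 8.96 after 48 h. AT5G45670 and AT5G07030 were at the floor in both genotypes at 48 h, where nothing can be said of their order. Their differences at 0 h were -2.57 and -2.40, and their interactions come from 0 h alone.

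Other genes with large differences at 0 h did not pass at 48 h. AT2G44640 was lower by -3.44 at 0 h (adjusted p = 0.00749) and differed by -1.27 at 48 h (adjusted p = 0.167). AT2G05540 was higher by 2.92 at 0 h (adjusted p = 0.021) and differed by 0.89 at 48 h (adjusted p = 0.464). AT3G54400 and AT4G02850 had differences of -2.45 and -1.95 at 0 h and of 0.00 and -0.01 at 48 h. AT3G23550 had 2.15 at 0 h and -1.04 at 48 h, with an interaction of -3.19 ± 0.57 that did not pass (adjusted p = 0.0573).

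**Figure D3:**
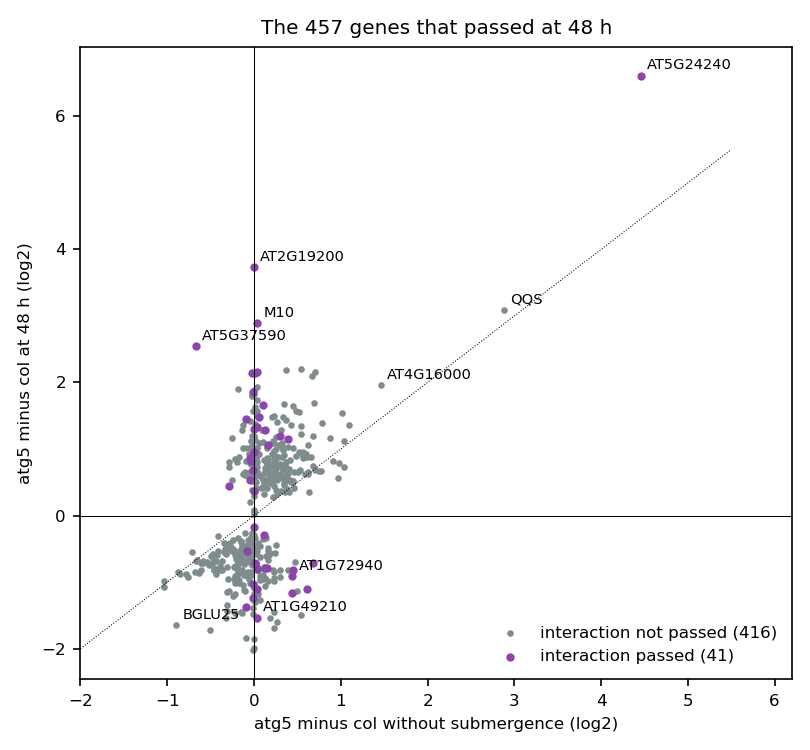
Difference between atg5 and col at 48 h (y axis, log2) against that at 0 h (x axis, log2) for the 457 genes that passed at 48 h. The dotted line marks equal differences, and the 41 genes that passed the interaction are purple. QQS lies close to the line, M10 and AT2G19200 lie close to 0 on the x axis, and AT5G24240 is positive on both.

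Genes of the protein synthesis machinery were next grouped by locus. Cytosolic ribosomal proteins build the small and large ribosomal subunits. Of 218 listed loci 127 were measured, and 13 of them were lower in atg5 at 48 h and 0 higher. Of all genes 1.58% were lower, and of the 1336 brightest 71 were. Below 0 lay 108 of the 127 and above it 11, with a median of -0.41 beside 0.00 over all genes, and 54 were lower and 1 higher at an unadjusted p under 0.05. At that level 1029 of all 13356 genes and 248 of the 1336 brightest were lower. The list was drawn up after differences of single members had been seen, so its count is no independent evidence of its direction. The small subunit gave 5 lower of 47 (median -0.39) and the large subunit 8 of 80 (median -0.41). AT4G17390, listed with the large subunit, was at 8.68, 8.28 and 8.78 in submerged col and 7.42, 8.09 and 7.45 in submerged atg5, a difference of -0.92 ± 0.20 (adjusted p = 0.0446). AT2G32060 of the small subunit differed by -0.88, and AT3G16780 and AT3G44590 of the large subunit by -0.88 and -0.86. At 0 h the differences of AT4G17390, AT2G32060, AT3G16780 and AT3G44590 were -0.76, -0.78, -0.86 and -0.63, of which that of AT3G16780 passed.

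The median level of the 127 genes was 8.70, 8.33 and 8.75 in the submerged col arrays and 7.85, 8.37 and 7.81 in the submerged atg5 arrays. The groups overlapped, since atg5 replicate 2 lay above col replicate 2. At 0 h it was 10.36, 10.40 and 10.66 in col and 9.95, 10.12 and 9.83 in atg5, without overlap. The median difference at 0 h was -0.52, with 7 genes lower, where 130 of all 13356 genes and 19 of the 1336 brightest were lower. The median change with submergence was -1.61 in col and -1.50 in atg5. Leaving out atg5 replicate 3 at 48 h left 0 lower genes, and leaving out replicate 2 of that group gave 29. The count was 1 without atg5 replicate 1 at 48 h, 3 and 6 without col replicates 1 and 3 at 48 h, 4 without atg5 control replicate 3, and 7 or 8 without col control replicate 1, 2 or 3 or atg5 control replicate 1. With the replicate block it was 2, with arrays centred on their median 26, without dim genes 28, and with the 6 submerged arrays alone 0.

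Nuclear genes of the mitochondrial respiratory chain and ATP synthase, which pass electrons from NADH to oxygen and make ATP made up the next list. Of 88 loci 56 were measured, of which 12 were lower and 0 higher at 48 h, where 1.58% of all genes and 71 of the 1336 brightest were lower. Of the 56, 54 lay below 0, with a median of -0.33, and 33 had all 3 atg5 arrays below all 3 col arrays. That held for 1014 of all 13356 genes and for 222 of the 1336 brightest. At an unadjusted p under 0.05, 37 were lower, beside 1029 of all genes and 248 of the 1336 brightest. Complex I, the NADH dehydrogenase, gave 7 lower of 28, complex III, the cytochrome bc1 complex, 4 of 11, and complex IV with cytochrome c 1 of 9, while complex II (3 measured) and the ATP synthase (5 measured) gave 0.

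AT3G27240, of complex III, was at 9.48, 9.31 and 9.13 in submerged col and 8.42, 8.60 and 8.50 in submerged atg5, a difference of -0.80 ± 0.09 (adjusted p = 0.0053). AT2G40765, also of complex III, was at 9.45, 9.43 and 9.13 against 8.64, 8.59 and 8.67, a difference of -0.70 ± 0.08 (adjusted p = 0.00446). Both loci were lower in every atg5 array than in any col array. MPPBETA, the subunit of complex III that also trims the import signals of mitochondrial proteins, was at 11.65, 11.74 and 11.73 against 11.30, 11.25 and 11.35. Its difference of -0.41 ± 0.04 was small and tightly measured (adjusted p = 0.00202). Of the listed complex I loci, AT3G06310 differed by -0.59, AT5G18800 by -0.50 and OEP16-3 by -0.44.

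The median level of the 56 genes was 9.56, 9.46 and 9.32 in submerged col and 8.96, 9.24 and 8.94 in submerged atg5, without overlap. At 0 h the median difference was -0.15 and 1 gene was lower, beside 130 of all 13356 genes and 19 of the 1336 brightest. The count of 12 was 3 without col replicate 1 at 48 h or without atg5 replicate 3 at 48 h, 4 without atg5 replicate 1 at 48 h, 5 without col replicate 2 at 48 h, 6 without any 1 of the atg5 control replicates, and 19 without col replicate 3 at 48 h. It was 8 without col control replicate 1 or 3, 20 with quantile normalization, 3 with the replicate block and 0 with the 6 submerged arrays alone. The 16 genes measured of the mitochondrial genome gave 0 calls in limma's test, 0 also at an unadjusted p under 0.05, and a median of -0.07.

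Genes of the early secretory pathway move new proteins into the endoplasmic reticulum and on to the Golgi apparatus. Of 73 loci 44 were measured, and 7 were lower and 0 higher at 48 h, where 1.58% of all genes and 71 of the 1336 brightest were lower. The median was -0.36, beside -0.14 at 0 h, where 2 were lower, as were 130 of all 13356 genes and 19 of the 1336 brightest. Below 0 lay 35 of the 44. The group of translocation, glycosylation and signal peptide removal gave 4 lower of 17, the COPI coat 2 of 10, the COPII coat 1 of 13 and the cargo receptors 0 of 4. AT5G05010, of the COPI coat that returns vesicles from the Golgi, was at 9.89, 9.95 and 9.55 in submerged col and 9.01, 8.93 and 8.99 in submerged atg5, a difference of -0.82 ± 0.12 (adjusted p = 0.0119). AT1G76400, AT2G22425 and AT1G52600, of the translocation group, differed by -0.68, -0.67 and -0.60.

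The median level of the 44 genes was 8.30, 8.47 and 8.04 in submerged col and 7.65, 7.54 and 7.61 in submerged atg5. The groups did not overlap. At 0 h the medians ran from 7.35 to 7.71 in col and from 7.19 to 7.35 in atg5. The count of 7 was 4 without col replicate 1 or 2 at 48 h or without atg5 replicate 2 or 3 at 48 h, 11 without col replicate 3 at 48 h, 4 with the replicate block and 0 with the 6 submerged arrays alone. Without atg5 replicate 2 at 48 h 1 gene was also higher. The list was compiled in the same way as that of the ribosomal proteins, as was the list of the respiratory chain. Of the 7 measured genes of the endoplasmic reticulum stress response, 6 lay below 0 and 1 was lower by the test. Of all genes 1.58% were lower, and of the 1336 brightest 71 were, so 1 call in 7 is a statement about that gene. The gene was CRT1b, a calreticulin chaperone of glycoprotein folding, at 10.91, 11.06 and 10.62 in col and 10.21, 10.34 and 9.94 in atg5. Its difference was -0.70 ± 0.14 (adjusted p = 0.0396). CRT1b passed under 12 of 23 other settings. The count of that list was 0 without col control replicate 2 or 3, any 1 of the atg5 control replicates, col replicate 1 or 2 at 48 h or atg5 replicate 1 or 3 at 48 h, with the replicate block and with the 6 submerged arrays alone, and 2 without col replicate 3 at 48 h. Its median was -0.46, and -0.24 without col replicate 2 at 48 h.

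**Figure D4:**
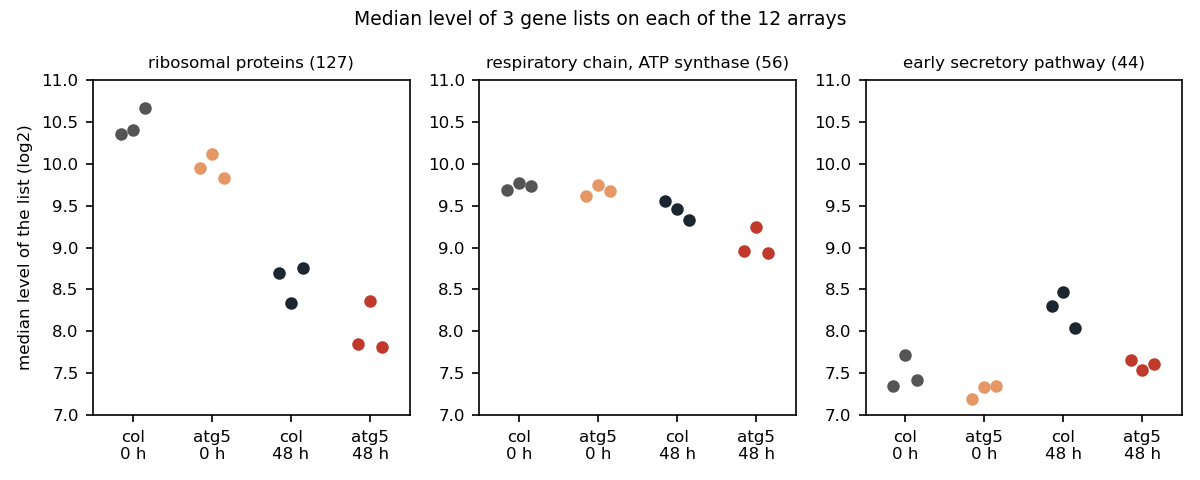
Median level (y axis, log2) of the cytosolic ribosomal protein, respiratory chain and early secretory pathway genes on each of the 12 arrays, by genotype and time (x axis). Points are arrays. The atg5 points at 48 h lie below the col points for the respiratory chain and the secretory pathway, while for the ribosomal proteins atg5 replicate 2, at 8.37, lies above col replicate 2, at 8.33.

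The tissue is a mixture of cells, and fewer cells of a type and less RNA per cell cannot be told apart in these values. Of the markers of other cell types that were measured, none passed limma's test at 48 h and 1, AT1G22690 of guard cells, did so at an unadjusted p under 0.05 (-1.50, adjusted p = 0.29). The guard cell gene FMA differed by 0.77, the phloem gene SWEET11 by -0.24 and AUR1, of dividing cells, by -0.05, and their part in the gene lists was not tested.

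In the chloroplast, 13 of 32 listed genes of thioredoxin and peroxide metabolism were measured, and 4 were higher and 0 lower. Of all genes 1.84% were higher, and of the 1336 brightest 72 were. AOR, an enzyme that reduces reactive carbonyls formed from oxidized lipids, was at 5.98, 4.93 and 6.10 in submerged col and 7.51, 7.39 and 7.56 in submerged atg5. The difference was 1.82 ± 0.27 (adjusted p = 0.0144), beside -0.02 at 0 h, and the level moved by -4.29 with submergence in col and by -2.45 in atg5. NTRC, the NADPH-dependent thioredoxin reductase of plastids, was at 8.84, 8.85 and 9.06 in col and 9.38, 9.42 and 9.30 in atg5, a difference of 0.45 ± 0.06 (adjusted p = 0.0127). At 0 h NTRC differed by -0.29, which did not pass (adjusted p = 0.0597), and the interaction was 0.74 ± 0.09 (adjusted p = 0.0148).

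TRXF2, a thioredoxin that activates enzymes of carbon fixation in the light, differed by 0.51 ± 0.11 (adjusted p = 0.0462) and SRX, which repairs overoxidized peroxiredoxins, by 0.35 ± 0.07 (adjusted p = 0.0367). SRX was also higher at 0 h, by 0.63. Of the 13 genes 9 lay above 0, the median was 0.26, and SAPX, the stromal ascorbate peroxidase, had -0.64 (adjusted p = 0.13). The number of higher genes in the list was between 1 and 3 when any 1 array was left out. It was 1 without atg5 replicate 3 at 48 h, and 2 without atg5 replicate 1 or 2 or col replicate 1 or 2 at 48 h, col control replicate 2 or atg5 control replicate 1 or 3. With the 6 submerged arrays alone it was 0. Without col replicate 3 at 48 h 3 genes were higher and 1 lower. TRXF2 and SRX each passed under 10 of 23 other settings. LYC, the lycopene cyclase on the way to beta-carotene, was the 1 higher of 10 measured genes of chlorophyll and carotenoid synthesis, at 0.59 ± 0.12 (adjusted p = 0.0346), and the median of those 10 was -0.10. LYC passed under 12 of 23 other settings, and the list had 0 higher genes without any 1 of the submerged arrays, col control replicate 1 or atg5 control replicate 3.

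None of the 11 measured photosynthesis genes passed in limma's test, and 4 did at an unadjusted p under 0.05. At that level 1029 of all 13356 genes and 244 of the 1336 brightest were higher. All 11 differences were positive, with a median of 0.46. RCA, the activase of Rubisco, had 0.67 (adjusted p = 0.10). The median level of the list was 12.02, 11.17 and 12.15 in submerged col and 12.42, 12.27 and 12.12 in submerged atg5, and col replicate 2 was the lowest array. Without that array 7 of the 11 differences were positive, 4 were negative and the median was 0.21. Without col replicate 3 at 48 h 3 genes were higher and the median was 0.69. With arrays centred on their median 1 gene was higher, and without dim genes also 1. The 69 plastid-encoded genes gave 0 calls, 2 at an unadjusted p under 0.05, and a median of -0.01. When 1 submerged array was left out their median ran from -0.14 to 0.06, with 21 to 47 differences positive. Without col replicate 3 at 48 h 3 of them were higher.

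Autophagy genes were counted next. Of 48 listed loci 19 were measured, among them the ATG8 family in full, and 0 passed at 48 h in limma's test. At an unadjusted p under 0.05, 1 was lower, beside 1029 of all 13356 genes. ATG8E was at 10.37, 10.49 and 10.22 in submerged col and 10.80, 10.64 and 10.88 in submerged atg5, a difference of 0.41 ± 0.24 (adjusted p = 0.511). ATG8F, the brightest of the family, was at 12.23, 12.38 and 12.30 against 12.42, 12.45 and 12.53, a difference of 0.17 ± 0.08 (adjusted p = 0.434). In both genes the atg5 arrays lay above the col arrays by a margin that did not pass. ATG8D had the widest difference, -0.73 ± 0.24 (adjusted p = 0.169), and was the 1 gene at an unadjusted p under 0.05. Its atg5 arrays, at 9.31, 8.77 and 9.41, lay below the col arrays, at 9.74, 10.37 and 9.57. APG8A (ATG8A), ATG8B, ATG8C, ATG8G, ATG8H (AT3G06420) and APG8H (AT3G15580, also named ATG8I) differed by -0.15, 0.32, 0.01, -0.05, 0.53 and 0.10.

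At 0 h the same list had a median difference of 0.49, against 0.11 at 48 h, and 3 members were higher in atg5. Of all 13356 genes 183 were higher at 0 h, and of the 1336 brightest 88. The 48 h median ran from -0.01 without col replicate 3 to 0.23 without col replicate 2, with 9 and 18 of the 19 differences positive, and was 0.05 without col replicate 1. ATG8F was higher by 0.78 (adjusted p = 0.00568). ATG8E, at 1.14, and APG8H (ATG8I), at 0.68, shared an adjusted p of 0.0489. Their interactions were -0.61, -0.73 and -0.58 and did not pass, with ATG8F the nearest (adjusted p = 0.0752). All of the ATG8 genes were above their 0 h levels in both submerged genotypes, ATG8E by 3.54 in col and 2.82 in atg5. The expression of ATG5 itself was not analysed here.

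Of the 18 measured genes of the core hypoxia response, which plants switch on when oxygen falls, 0 were higher and 1 was lower in submerged atg5, and the median was -0.06. Of all genes 1.84% were higher and 1.58% lower. At an unadjusted p under 0.05 in limma's test 3 of the 18 were higher and 1 lower, beside 1029 and 1029 of all 13356 genes. Leaving out col control replicate 2, col replicate 3 at 48 h or atg5 replicate 3 at 48 h made 1 gene higher. With arrays centred on their median 2 genes were higher, and without dim genes also 2. The lower gene was AT1G72940, at 6.66, 6.85 and 6.74 in col and 5.71, 5.75 and 6.06 in atg5. Its difference was -0.91 ± 0.10 (adjusted p = 0.00443) and that at 0 h 0.44, so that the interaction was -1.35 ± 0.14 (adjusted p = 0.00639). AT4G27450 was at 11.70, 11.90 and 11.66 against 11.68, 11.58 and 11.54, with a difference of -0.16 ± 0.36 (adjusted p = 1). At 0 h AT4G27450 was higher in atg5 by 2.34 (adjusted p = 0.0176), and the interaction of -2.50 ± 0.51 did not pass (adjusted p = 0.0806).

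Lists of other responses gave few calls. Fermentation and glycolysis (8 genes), amino acid breakdown (12), oxidative stress (7), salicylic acid and systemic resistance (7), leaf senescence (5) and immune receptors (5) gave 0 in limma's test, with 2, 2, 0, 2, 1 and 1 at an unadjusted p under 0.05. At that level 1029 of all 13356 genes were higher and 1029 lower, and 244 and 248 of the 1336 brightest. Their medians were -0.07, 0.09, -0.05, 0.55, 0.00 and -0.02. With lists this small the medians moved with single arrays at 48 h. That of the salicylic acid list was 0.16 without col replicate 3 and 0.25 without atg5 replicate 2. That of amino acid breakdown was -0.02 without col replicate 1, and that of fermentation and glycolysis 0.02 without col replicate 3. Fermentation and glycolysis had 1 lower gene without col replicate 2 or 3, and amino acid breakdown 1 lower without col replicate 1 and 1 higher without col replicate 3. In the salicylic acid list AT5G52810, AT3G48080 and UGT76B1 were apart in all arrays, by 0.91, 0.81 and 0.80, without passing (adjusted p = 0.165, 0.604 and 0.286). SAG101, a defence lipase-like protein, had 7.17, 8.27 and 8.17 in col and 8.19, 7.49 and 7.97 in atg5, a difference of 0.01 ± 0.36. QQS was the 1 gene of 7 that passed in the carbon starvation list and EXO the 1 of 6 in the cell wall expansion list, whose medians were -0.05 and 0.00. QQS did not pass without any 1 of the atg5 arrays at 48 h.

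**Figure D5:**
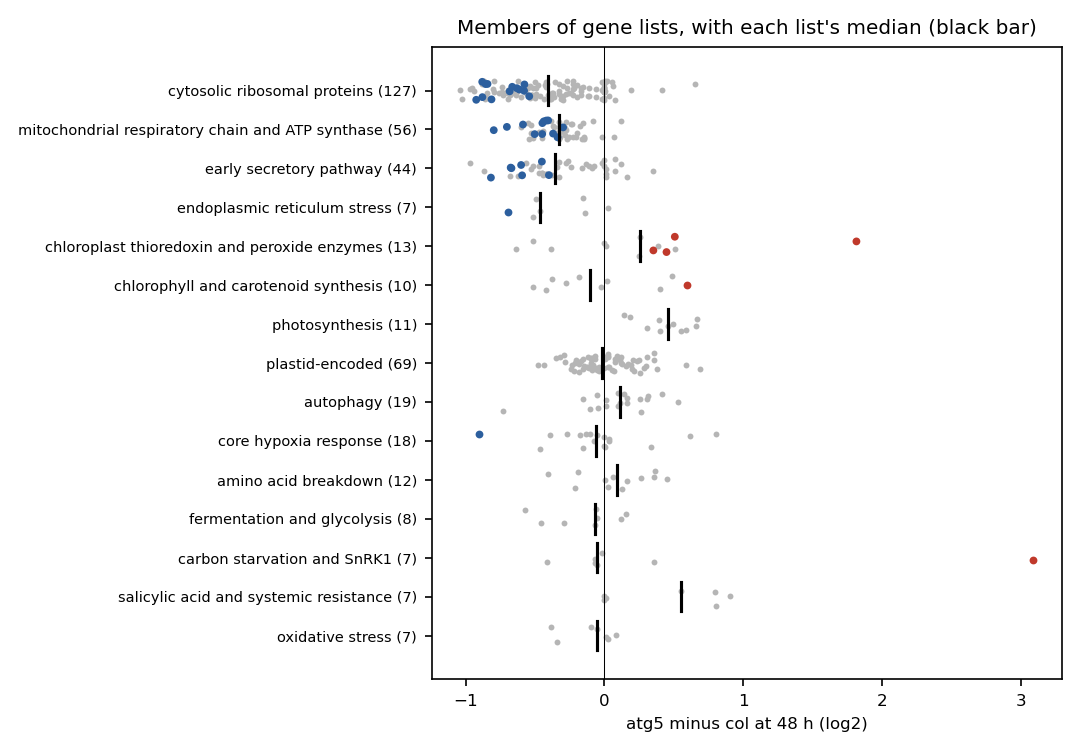
Difference between atg5 and col at 48 h (x axis, log2) of the measured members of 15 gene lists (y axis, number measured in brackets). Points are genes, red or blue where they passed and grey where they did not, and black bars are list medians. The ribosomal, respiratory and secretory lists lie mostly left of 0 with medians of -0.41, -0.33 and -0.36, and the autophagy and core hypoxia lists lie around 0.

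Gene families read from the gene symbols gave calls in a few members. These families, like the lists of chloroplast redox and pigment genes, were drawn up with the differences known, so their counts are no independent evidence. Of all genes 1.84% were higher and 1.58% lower, and 1 call in a family of this size is a statement about that gene and not about the family. Of 11 RALF-like peptides 2 were lower, RALFL22 and RALFL33. RALFL33 was at 10.64, 10.48 and 10.02 in submerged col and 9.26, 9.28 and 9.63 in submerged atg5, a difference of -0.99 ± 0.16 (adjusted p = 0.0178). The count was 0 without atg5 replicate 1 at 48 h, with the replicate block and with the 6 submerged arrays alone. It was 1 without col control replicate 3, any 1 of the atg5 control replicates, col replicate 1 or 2 at 48 h or atg5 replicate 3 at 48 h. Of 7 cellulose synthase-like genes 2 were lower, CSLA03 and CSLC04, the second of the class that makes the xyloglucan backbone, at -0.96 ± 0.17 (adjusted p = 0.0254). That count was 0 without atg5 replicate 3 at 48 h and with the 6 submerged arrays alone, and 1 without col replicate 1 or 2 or atg5 replicate 1 or 2 at 48 h and with array weights. Of 20 beta-glucosidases BGLU25 and BGLU16 were lower, and 1 was without atg5 replicate 2 or 3 at 48 h. CML23, a calmodulin-like calcium sensor, was the 1 lower of 7, at 4.53, 3.27 and 3.56 in col and 2.38, 2.38 and 2.72 in atg5, a difference of -1.30 ± 0.27 (adjusted p = 0.0422). The call of CML23 was lost without any 1 of the 6 control arrays or the 3 atg5 arrays at 48 h, with the replicate block and with the 6 submerged arrays alone.

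ALDH10A9, of the aldehyde dehydrogenases that form betaines, was the 1 lower of 8 at -0.30 ± 0.06 (adjusted p = 0.0451). ALDH10A9 passed under 8 of 23 other settings, and among the settings that left out 1 array it did so without atg5 control replicate 2 or 3. Without col replicate 3 at 48 h 1 gene of the 8 was higher. UGT80B1, which glucosylates sterols, was the 1 higher of 47 UGT-named glycosyltransferases, at 7.15, 6.92 and 6.81 in col and 7.61, 7.58 and 7.61 in atg5. GSTL3, a lambda-class glutathione transferase, was the 1 higher of 13, at 0.41 ± 0.08 (adjusted p = 0.0319), and was also higher at 0 h by 0.46. GSTL3 did not pass without atg5 control replicate 3, col replicate 1 or 2 at 48 h or atg5 replicate 2 or 3 at 48 h. The UGT count was 3 without col replicate 1 at 48 h. TBL38 was the 1 higher of 22. In limma's test 0 passed of 40 AGAMOUS-like genes, 14 SWEET sugar transporters, 10 alpha-expansins, 9 xyloglucan transferases and 6 serine carboxypeptidase-like genes, with 3, 1, 0, 0 and 2 at an unadjusted p under 0.05. At that level 1029 of all 13356 genes were higher and 1029 lower.

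By locus name, between 2.93% (chromosome 3) and 3.81% (chromosome 5) of the genes of each nuclear chromosome passed at 48 h. A mutant line can carry linked differences around the mutated gene, so the 100 measured genes nearest to ATG5 in locus order on chromosome 5 were counted apart. Of these 5 passed, or 5.0%. They were TRXF2, AT5G17670 (1.62) and AT5G17680 (1.13), which were higher, and AT5G17190 (-0.54) and AT5G17840 (-0.56), which were lower. AT5G17670 was at 5.45, 4.13 and 5.19 in submerged col and 6.41, 6.53 and 6.69 in submerged atg5, and at 9.46 and 9.48 at 0 h.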

How the data were processed

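The study hybridized leaf RNA of 12 plant samples, 3 each of col and atg5 at 0 h and 48 h, to 1-colour Affymetrix arrays. The values are the log2 table deposited by the authors, of 22810 probe sets. MAS5 and GCRMA are both named, per the submitters' processing notes, with the role of neither stated, and the normalization of the table is not given in the sources used here. Precision is set by how many arrays a group has.

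Apart from 64 controls, 13513 probe sets named 1 gene, 503 several and 8730 none. The last 2 kinds were left out, and the brightest probe set was kept for the 146 genes that had more than 1. RefSeq gave a locus by gene ID for 13286 of 13356 genes. ATG5 and NBR1, ICS1, PAD4, EDS1, PR1, PR2, PR5, WRKY70, NPR1, SAG12, SAG13, ADH1 and PDC1 were not analysed here.

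One mean per group was fitted over the 12 arrays with limma 3.58.1 in R 4.3.3 (8 residual degrees of freedom, 0.488 prior), with contrasts atg5 minus col at 48 h, at 0 h, and their difference, Benjamini-Hochberg adjustment over all genes and a threshold of 0.05. The script was tested on simulated data. Exact permutation tests used scipy 1.17.1 under Python 3.11.15. Values within 0.05 of 2.204 count as at the floor. A gene at or near the floor at 0 h has almost no spread there, which narrows its pooled error at 48 h. Where a genotype lay there on 3 arrays its difference is given as a bound.

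The genes named are the 15 largest positive and negative differences among those that passed and did not overlap, fixed markers, up to 4 passing members of a list, and the 6 largest of either sign for the interaction and for 0 h. Genes near ATG5 that passed, PYE, MPPBETA, OEP16-3 and members that did not pass were named after their values were seen. The members and lists were chosen with earlier results of these data known. The 5 lists of ribosomal, respiratory, secretory, chloroplast redox and pigment genes and the 13 families read from symbols were written after the differences had been seen, by membership from background knowledge and not by value. The families first planned rest on gene descriptions, which the reference table does not hold, and were not built.

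The samples were treated as unpaired in the main fit. At 48 h the deviations of same-numbered col and atg5 arrays from their group means correlated at -0.07, -0.48 and -0.23. For col and atg5 arrays of unlike number the correlations ran from -0.18 to 0.36. With so few arrays these values cannot decide whether same-numbered samples were handled together. Alternatives were other normalizations, filters, probe set rules, variance priors, array weights, the replicate block, the arrays of a comparison alone and leaving out each array.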

Additional observations from a re-analysis of the deposited data

Results flagged for a closer look

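The genotype difference at 48 h was tested against that at 0 h, and the genes listed here passed limma's test of this difference after adjustment over 13356 genes. Values are the difference at 48 h minus that at 0 h, on the log2 scale, and no cause was tested.

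Among genes higher in submerged atg5 the value was at least 3.74 for AT2G19200, which was at the floor in the other groups. It was 3.22 for AT5G37590, 2.86 for M10, 2.17 for AT3G01060, 2.15 for AT5G24240, 2.13 for LUP5, 2.11 for AT4G27290 and 0.74 for NTRC. Among genes lower in submerged atg5 it was -1.71 for AT2G36950, -1.60 for AT1G61667, -1.56 for AT1G49210, -1.35 for AT1G72940 and -1.01 for BGLU16. AT2G36950 was at 9.68, 10.06 and 9.48 in submerged col and 8.75, 8.33 and 8.84 in submerged atg5, and AT1G61667 at 5.45, 5.04 and 4.92 against 3.93, 3.93 and 4.07.

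In the other genes the difference at 48 h did not pass. The value was 2.65 for AT4G29020, 2.57 for AT5G45670 and 2.40 for AT5G07030, all lower in atg5 at 0 h. AT5G45670 and AT5G07030 were at the floor on all 6 submerged arrays, so their values are the 0 h difference with its sign turned and give no measured difference at 48 h. It was -2.25 for AT1G64360, -1.78 for AT5G46780 and -1.74 for AT5G12420, all higher in atg5 at 0 h. AT5G12420 moved by 6.24 with submergence in col and by 4.50 in atg5.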

How the results depend on the processing

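The number of genes passing at 48 h, 457, became 695 without dim genes, 229 with the replicate block, 948 over all probe sets named or not, 132 with a minimum of 2-fold and 13 with the 6 submerged arrays alone. Leaving out 1 array in turn gave 179 to 751, with over 1.5 times fewer without col replicate 1 (270), atg5 replicate 1 (190) or atg5 replicate 3 (179) at 48 h or atg5 control replicate 3 (279), and more without col replicate 3 at 48 h (751). At 0 h, 313 became 159 with the replicate block, 13 with the 6 control arrays alone, 689 over all probe sets and 108 with a minimum of 2-fold. Leaving out 1 array gave 124 to 344, with 124 and 157 without atg5 control replicates 1 and 3 and 181 and 203 without atg5 replicates 1 and 3 at 48 h. For the interaction, 80 became 134 with arrays centred on their median, 156 without dim genes, 34 with the replicate block, 157 over all probe sets and 44 with a minimum of 2-fold. Leaving out 1 array gave 51 to 186, with 126 and 137 without col control replicates 2 and 3, 186 without col replicate 3 at 48 h and 51 without atg5 replicate 1 at 48 h. The cause was not tested, beyond the different number of genes or arrays in a fit.

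Quantile normalization gave 494 at 48 h, of which 418 were among the 457. Of the 58 named genes that passed, 23 no longer passed with the replicate block, 56 with the 6 submerged arrays alone, and 30, 26 and 22 without atg5 replicates 3 and 1 and col replicate 1 at 48 h. None changed sign under 23 settings, but most settings could not turn a sign. The 48 h groups of these genes did not overlap, so leaving out 1 array keeps the sign. The block, the variance priors and the arrays outside the comparison do not enter the difference. APG8A and ATG8G, which had not passed at -0.15 and -0.05, ran from -0.27 to 0.0525 and from -0.22 to 0.21 when 1 submerged array was left out, with the positive ends without col replicate 2, and ATG8G was 0.09 without atg5 replicate 1. Of 384 list medians under other settings 367 moved by less than the spread between replicates and 17 by more. A list median at 48 h cannot move under the replicate block, another variance prior, the 6 submerged arrays alone or the loss of a control array. The count of 367 is therefore no measure of stability. The all-probe-set fit, the leave-outs of arrays outside a comparison and the calls within lists were chosen after seeing the data. Where a gene lies at the floor the table sets no order.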

Other observations

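The genes named here were chosen for their known roles after their values had been seen, and all passed limma's test at 48 h. OS9, a lectin of endoplasmic reticulum quality control, was at 7.22, 7.41 and 6.79 in submerged col and 6.30, 6.16 and 6.27 in submerged atg5, a difference of -0.90. GPT, the enzyme of the first step of N-glycan assembly, differed by -0.86 and PMM, the phosphomannomutase that feeds mannose into it, by -0.68. At 0 h OS9, GPT and PMM differed by -0.03, -0.17 and -0.11, and none passed. GT72B1, a glucosyltransferase that conjugates chlorinated phenols, was at 10.27, 10.09 and 9.40 against 8.26, 8.27 and 8.91, a difference of -1.44. HTB2, a histone H2B gene, differed by -0.99 at 48 h and -1.03 at 0 h, and PRXIIF, the mitochondrial peroxiredoxin, by -0.49 at 48 h.

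LrgB, the plastid glycolate and glycerate transporter, was at 8.90, 8.31 and 8.61 in submerged col and 9.46, 9.52 and 9.60 in submerged atg5, a difference of 0.92. SPPA, a thylakoid protease, was at 8.40, 8.35 and 8.29 against 9.06, 8.94 and 9.06, a difference of 0.68 that exceeded that at 0 h (interaction, adjusted p = 0.0148). ATSMC2, a condensin subunit, was at 2.64, 2.64 and 2.65 against 4.13, 4.17 and 3.97, and its difference of 1.44 also passed the interaction (adjusted p = 0.00258). DJ1D, a glyoxalase of the DJ-1 family, differed by 0.65 and GLX2-4, a glyoxalase II-like gene, by 0.52. MTP11, a manganese transporter, differed by 0.73 at 48 h and 1.04 at 0 h.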
